A study of Mus musculus with 4 samples.

Results

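Immortalized macrophages of *MK2*-KO mice that had been given *MK2* back (iMK2-KO+MK2) were compared after IL-1α and without treatment (UT). Every gene with a mean of at least 50 normalized counts over the 4 libraries of the series was included, which left 10585 of 55356 genes, and each gene's response is the log2 ratio of its 2 values after adding 1 to both. In these cells the differences after IL-1α were small, and early NF-κB genes were prominent among the genes that were higher. *Nfkbiz*, *Zc3h12a* and *Map3k8* were between 2.35- and 2.86-fold higher after IL-1α, and *Tnf*, *Nfkbie* and *Nfkbia* between 1.70- and 1.93-fold higher. *Il1b* and *Pde4b* were 3.31- and 3.62-fold higher, but reached the filter only through the libraries of the cells not given *MK2*. The gene lists were chosen with earlier results of these data known. Outside the 4 lists of NF-κB genes, no listed gene inside this filter was 1.5-fold higher beyond counting error. The 3 highest and the 3 lowest ratios belonged instead to predicted or clone-named genes whose sequence is nearly all shared with other genes.

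The series holds 4 libraries, 1 for each condition. The iMK2-KO cells are bone marrow-derived macrophages from *MK2*-KO mice, immortalized and transduced with a vector for *MK2* or with an empty *GFP* vector (iMK2-KO+GFP), and each line is a single population sorted for GFP. Both lines were left untreated or received recombinant murine IL-1α at 5 ng/mL for 1 h. The sample labels call the iMK2-KO+MK2 cells wild type, although these cells carry the deletion of the other line together with a transgene. Each condition being 1 library, replicates to check a difference are lacking and p-values are not given. The 95% Clopper-Pearson intervals that follow a ratio are on the log2 scale, take the normalized counts as reads and cover counting error only, not the variation between cultures. A gene is called higher or lower where its ratio was at least 1.5-fold and its interval excluded no change.

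The 4 libraries summed to between 24891906 and 25733071 normalized counts. *Mapkapk2*, which encodes MK2, was at 561 in UT and 1585 in IL-1α-treated iMK2-KO+GFP cells, and at 38357 and 38141 in iMK2-KO+MK2 cells. Its values in the 2 iMK2-KO+MK2 libraries were within counting error of each other (log2 ratio -0.01, interval -0.03 to 0.01). All 15 macrophage markers were measured in every library, with sums of 135267 in UT and 138791 in IL-1α-treated iMK2-KO+MK2 cells. Of 27 markers of other cell types, 18 were at 0 in all 4 libraries, and the summed level was between 29 and 137. Most of that sum in iMK2-KO+MK2 cells was *Zbtb46*, a dendritic cell factor, at 104 and 115.

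IL-1α binds the IL-1 receptor, and the adaptor MyD88 with the IRAK kinases and TRAF6 then activates the IKK complex and the MAP kinases. IKK lets NF-κB enter the nucleus, where it switches on cytokine genes together with its own inhibitors, so that the first hour holds both the inflammatory output and the start of its shutdown. MK2 is activated by p38 in the same pathway and is best known for acting on mRNAs with AU-rich elements, such as that of TNF.

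Between the 2 iMK2-KO+MK2 libraries, 70 of the 10585 genes were called higher, which is 0.661% of the genes tested, and 80 were called lower (0.756%). At least 2-fold differences beyond counting error were found for 22 genes upwards (0.208%) and 16 downwards (0.151%). Counting error alone was exceeded by 1343 genes upwards (12.7%) and 928 downwards (8.77%), most of them by small ratios. The median log2 ratio over all genes was 0.01, and 66.3% of the genes lay within 0.1 of no change. In the iMK2-KO+GFP pair this share was 53.2%, with 286 genes called higher (2.7%) and 137 lower (1.29%).

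The level of a gene set where calls were found. Among the 5327 genes with a mean of 1000 or more over the 2 iMK2-KO+MK2 libraries, none was called higher and 1, the predicted gene *Gm20431*, was called lower (1257 against 833). Without the fold limit, 1.5-fold, many of these abundant genes still differed beyond counting error, and the following were chosen after their values were seen. *Malat1*, a nuclear non-coding RNA, went from 16380 to 19407 (log2 ratio 0.24) and the aminopeptidase gene *Lnpep* from 2507 to 3365 (0.42). *Kif14*, a kinesin of cell division, was lower, at 1883 and 1282 (-0.55). Between 300 and 1000 normalized counts, 14 of 3114 genes were called higher, and 4 of these 14 (*Nfkbiz*, *Nfkbia*, *Nfkbid* and *Tnf*) were NF-κB list members. Under 50, where genes entered only through the iMK2-KO+GFP libraries, 10 of 118 were called higher, *Il1b* and *Pde4b* among them. The spread widened as the level dropped. From the lower to the upper quartile, the log2 ratios spanned 0.09 at 1000 or more, 0.15 from 300 to 1000, 0.40 from 50 to 100 and 0.71 under 50.

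**Figure D1:**
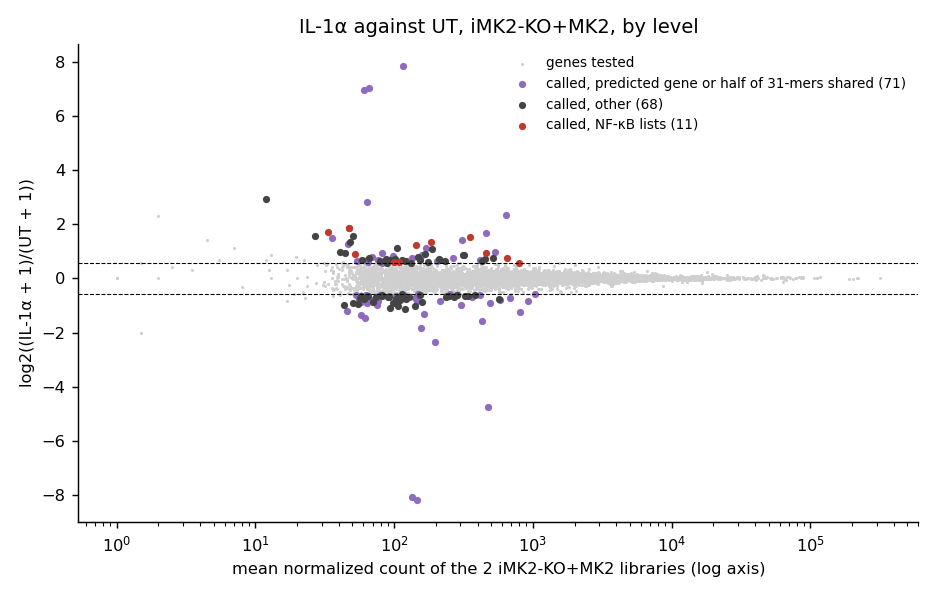
Log2 ratio of IL-1α to UT iMK2-KO+MK2 cells (y axis) against the mean normalized count of both libraries (x axis, log scale), 1 point per gene, with dashed lines at 1.5-fold. The 11 called NF-κB genes (red) lie on or above the upper line at levels under 1000, while the widest ratios in both directions are predicted genes or genes that share at least 50% of their 31-base words with another gene (purple, 71 genes).

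The 4 lists of NF-κB genes, chosen with earlier results of these data known, together held 66 members. Of these, 53 passed the filter and 47 also had a mean of at least 50 in the 2 iMK2-KO+MK2 libraries. Of the 53, 11 were called higher (20.8%, against 0.661% of all genes tested) and none lower. Beyond counting error, 25 (47.2%) were above and 3 (5.66%) below no change, beside 12.7% and 8.77% of all genes tested. With the mean of at least 50 taken over the 2 iMK2-KO+MK2 libraries, 9 of 47 members were called higher, beside 66 of 10579 genes. Over the 53 members the log2 ratio had a median of 0.10, beside 0.01 for all genes. The response was uneven, since 42 of the 53 members were not called. *Il1a*, *Bcl3*, *Cxcl2*, *Traf1*, *Il1b* and *Pde4b* reached the filter only through the iMK2-KO+GFP libraries. The lowest means among the members inside the filter were those of *Bcl3* (57.2) and *Ccl5* (58.8), and the highest outside it those of *Bcl2a1b* (28.2) and *Ccrl2* (18.2).

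The feedback inhibitors formed the group with the most calls, 6 of 13 members. *Nfkbia*, encoding IκBα, which holds NF-κB in the cytoplasm, was at 480 in UT and 815 in IL-1α-treated iMK2-KO+MK2 cells, which is a log2 ratio of 0.76 (interval 0.60 to 0.93). *Nfkbiz* (chr16:55631738-55659262 in the table's positions), encoding the nuclear IκBζ that helps to switch on secondary targets, was at 183 and 526, a log2 ratio of 1.52 (1.28 to 1.77). *Zc3h12a* encodes the ribonuclease Regnase-1, which degrades cytokine mRNAs. It was at 104 and 268, a log2 ratio of 1.36 (1.03 to 1.71). The whole interval lay above 1.5-fold for these 3 genes and reached below it for the other called inhibitors. *Nfkbie* (IκBε) was at 36 and 68 (log2 ratio 0.90, interval 0.31 to 1.54) and *Tnip3*, a partner of A20, at 80 and 121 (0.59, 0.18 to 1.02). *Nfkbid*, encoding the nuclear IκBNS, was at 639 and 959, exactly 1.5-fold after adding 1 (0.58, 0.44 to 0.73). A20 itself did not follow. *Tnfaip3*, which encodes it, was at 1147 and 1207 (0.07, -0.04 to 0.19), and *Tnip1*, *Tnip2*, *Cyld* and *Peli1* also stayed within counting error, with log2 ratios between -0.01 and 0.09.

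Among the induced cytokines and chemokines, 2 of 12 measured members were called higher. *Il1b* (chr2:129206490-129213059), the IL-1β gene, was at 15 in UT and 52 in IL-1α-treated iMK2-KO+MK2 cells, which is a log2 ratio of 1.73 (0.94 to 2.73). *Tnf* was at 315 and 608, a log2 ratio of 0.95 (0.75 to 1.15). The value of *Il1b* rests on few reads and its interval is correspondingly wide, whereas that of *Tnf* is narrow. *Cxcl2*, a neutrophil chemokine, was listed at 0 in UT and 4 in IL-1α-treated cells. Smaller differences beyond counting error were found for *Csf1* (1526 and 1823), *Cxcl10* (104 and 136) and *Ccl3* (2558 and 2748). *Ccl4* (842 and 883) and *Il1a* (41 and 55) were within counting error. The monocyte chemoattractants were lower after IL-1α, *Ccl2* at 3868 and 3599 and *Ccl7* at 985 and 842, in both cases beyond counting error but under 1.5-fold. The median log2 ratio of this list was 0.18. It did not move when *Cxcl2* was set to the ratio that the floor of 3 counts allows.

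The 5 NF-κB subunit genes all had ratios above 0. *Relb*, which encodes the subunit of the non-canonical dimer, was called higher at 86 and 131 (log2 ratio 0.60, interval 0.20 to 1.02). *Rel* was at 780 and 900 (0.21), *Rela* at 1110 and 1211 (0.13) and *Nfkb1* at 1616 and 1732 (0.10), each beyond counting error. *Nfkb2* was at 541 and 545 (0.01). Of the 11 non-canonical pathway components fixed as a list, 10 were measured, and *Relb* was the only one called. *Map3k14*, encoding the kinase NIK, was at 355 and 322, and *Birc3*, encoding the ubiquitin ligase cIAP2, at 534 and 466, the latter below no change beyond counting error.

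Of the 23 other early targets measured, 2 were called higher. *Pde4b*, a cyclic AMP phosphodiesterase, was at 20 and 75, a log2 ratio of 1.86 (1.18 to 2.70). *Map3k8*, encoding the kinase TPL2 that links NF-κB to the ERK cascade, was at 85 and 201 (1.23, 0.87 to 1.62). Just under the limit were *Ier3*, a stress response gene, at 773 and 1095 (0.50, 0.37 to 0.64), and the receptor gene *Tlr2*, at 1187 and 1651 (0.48, 0.37 to 0.58). These members differed beyond counting error, with intervals that reach 1.5-fold for *Ier3* and stop just short of it for *Tlr2*. *Tnfaip2*, *Icam1*, *Clec4e*, *Pim1* and *Ptgs2* were higher by smaller ratios, 0.13 to 0.27, all beyond counting error. *Nlrp3* (490 and 445), *Irf1* (343 and 338) and *Sod2* (4012 and 3935) lay below no change, within counting error.

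**Figure D2:**
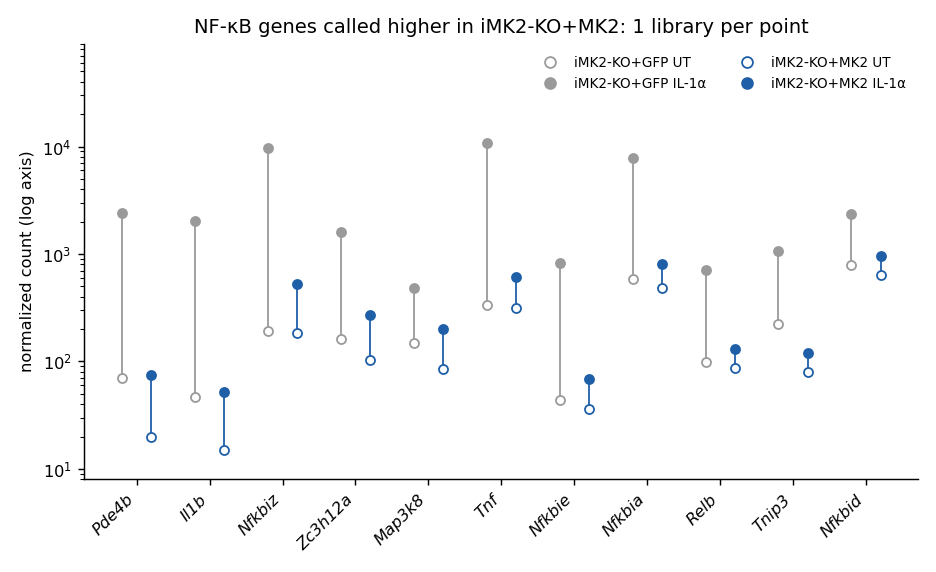
Normalized counts (log axis) of the 11 NF-κB genes called higher, with 1 library per point. Open points are UT and filled points IL-1α-treated cells of iMK2-KO+GFP (grey) and iMK2-KO+MK2 (blue), and the filled blue point lies above the open one for each gene but far under the filled grey one.

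The promoters of called NF-κB genes were read to show whether these genes share a κB site near the start. The windows are the 250 bases before the transcription start in RefSeq on GRCm38.p6. They are given for the 5 called genes of the NF-κB lists with the highest ratios and a single start in that table. *Nfkbia* lies on the minus strand at chr12:55492648-55492897, *Nfkbie* on the plus strand at chr17:45555450-45555699, *Il1b* on the minus strand at chr2:129371140-129371389, *Tnf* on the minus strand at chr17:35202008-35202257 and *Zc3h12a* on the minus strand at chr4:125127882-125128131. Capitals mark a match, on either strand, to the NF-κB consensus or to an AP-1 site (TGAGTCA or TGACTCA).
Nfkbia: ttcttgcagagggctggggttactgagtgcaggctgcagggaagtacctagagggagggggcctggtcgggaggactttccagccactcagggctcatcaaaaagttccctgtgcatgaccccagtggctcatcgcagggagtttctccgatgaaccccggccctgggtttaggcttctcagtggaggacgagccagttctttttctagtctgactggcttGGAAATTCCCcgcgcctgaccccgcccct
Nfkbie: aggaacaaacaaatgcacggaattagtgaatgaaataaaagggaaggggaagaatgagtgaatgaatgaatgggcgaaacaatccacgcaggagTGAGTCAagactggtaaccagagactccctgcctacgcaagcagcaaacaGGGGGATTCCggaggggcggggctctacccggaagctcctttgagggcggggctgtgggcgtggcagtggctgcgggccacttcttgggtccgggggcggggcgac
Il1b: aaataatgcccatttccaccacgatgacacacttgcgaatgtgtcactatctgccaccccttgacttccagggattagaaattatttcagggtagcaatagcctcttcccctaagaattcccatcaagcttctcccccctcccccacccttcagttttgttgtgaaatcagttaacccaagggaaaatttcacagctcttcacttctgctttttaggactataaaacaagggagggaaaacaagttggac
Tnf: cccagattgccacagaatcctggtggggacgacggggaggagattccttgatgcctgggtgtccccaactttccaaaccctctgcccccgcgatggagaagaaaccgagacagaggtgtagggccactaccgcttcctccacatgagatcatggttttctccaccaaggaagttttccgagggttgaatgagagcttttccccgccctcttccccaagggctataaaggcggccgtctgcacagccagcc
Zc3h12a: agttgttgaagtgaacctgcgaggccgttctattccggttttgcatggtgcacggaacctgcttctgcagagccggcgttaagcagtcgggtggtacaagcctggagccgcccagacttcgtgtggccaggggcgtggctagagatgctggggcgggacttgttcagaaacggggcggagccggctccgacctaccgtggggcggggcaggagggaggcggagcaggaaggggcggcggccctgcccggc

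In *Nfkbia* the NF-κB match GGAAATTCCC covers bases -29 to -20 from the start. In *Nfkbie* the match GGGGGATTCC covers -106 to -97, and an AP-1 site covers -156 to -150. No letters of either motif were found in the windows of *Il1b*, *Tnf* and *Zc3h12a*. Among all called NF-κB genes, 8 of 11 had an entry, and 5 of these 8 (62.5%) held the NF-κB consensus at 1 or more starts. It was held by 16 of 35 list members that were tested and not called (45.7%), by 865 of 8243 of all genes tested with an entry (10.5%), and by 2225 of all 27025 genes in the table (8.23%). Genes with several starts have more windows in which to match. Counted by start, the shares were 6 of 13 (46.2%) for called members, 18 of 43 (41.9%) for members not called and 935 of 10517 (8.89%) for genes tested. The AP-1 site was found in 1 of the 8 called genes (12.5%), in 3.71% of the genes tested with an entry and in 5.16% of all genes in the table. Of the called genes outside the NF-κB lists, 5 of 34 (14.7%) higher and 3 of 45 (6.67%) lower genes held the NF-κB consensus. A match describes the letters of the window only.

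Apart from *Relb*, a non-canonical component that is also in the list of NF-κB subunits, the other lists held no gene inside the filter that was called higher. The immediate-early transcription factors had a median log2 ratio of 0.05 over 20 measured members. Of these, 5 (25%) were above no change beyond counting error, beside 12.7% of all genes tested. *Junb* was at 1651 and 1855 (0.17) and *Jun* at 2558 and 2762 (0.11), whereas *Fos* was at 218 and 185 (-0.24), within counting error, and *Egr1* at 77 and 91 (0.24). Of the dual-specificity phosphatases that switch off MAP kinases, *Dusp1* was highest among the 9 measured, at 61 and 86 (0.49, interval 0.01 to 0.99). *Dusp8* was under the filter, at 8 and 23, a difference that met the limits of a call on few counts (1.42, interval 0.31 to 2.89). In the list of AU-rich element binding factors none was called, and *Zfp36*, encoding tristetraprolin, was at 788 and 814 (0.05).

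Components of the IL-1 receptor pathway were near their UT level. The receptor gene *Il1r1* was under the filter, at 25 and 29, and *Il1rap* was at 393 and 409. Small differences beyond counting error were seen upwards for 5 of 15 members (33.3%, beside 12.7% of all genes tested). These were *Irak1*, *Irak2*, *Irak4*, *Map3k7* and *Ikbkg*, with log2 ratios between 0.18 and 0.24. Of the p38 and MK kinases, *Map2k6* was higher at 158 and 212 (0.42) and *Mapkapk5* lower at 846 and 723 (-0.23), both beyond counting error, while *Mapk14*, encoding p38α, was at 3093 and 3031. The p53 list had a median of 0.03. *Trp53* was at 2303 and 2426, *Cdkn1a* at 5065 and 5170 and *Mdm2* at 3261 and 3656, the last of these beyond counting error (0.16).

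The medians of the remaining lists were close to no change, although members beyond counting error were frequent in some. Among 12 hypoxia and glycolysis genes, 6 (50%) were above no change beyond counting error and none below. Among 13 mitochondrially encoded transcripts, 9 (69.2%) were above and 2 (15.4%) below. The shares were 47.2% and 5.66% for the NF-κB lists, and 12.7% and 8.77% for all genes tested. Interferon-stimulated genes had a median log2 ratio of -0.03, with *Ddx58* at 61 and 91 and *Oasl2* at 199 and 136. Under the filter, *Mx2* (2 and 13) and *Ifi44* (6 and 21) also met the limits of a call on few counts. Medians were 0.05 for hypoxia and glycolysis genes, 0.01 for heat shock and unfolded protein response genes, -0.01 for sterol genes and for cell cycle genes, and 0.00 for housekeeping genes. Among short-lived regulators of other signals, *Smad7*, an inhibitor of TGF-β signaling, was the one list member called lower, at 132 and 82 (-0.68, -1.10 to -0.28), and *Sik1*, a salt-inducible kinase gene, was at 451 and 651 (0.53). Of the 13 mitochondrially encoded transcripts, *mt-Nd3* was lowest at 1876 and 1336 (-0.49), and it was also lower after IL-1α in iMK2-KO+GFP cells, at 1572 and 872. *Cd14* was the macrophage marker with the highest ratio, at 1962 and 2250 (0.20).

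**Figure D3:**
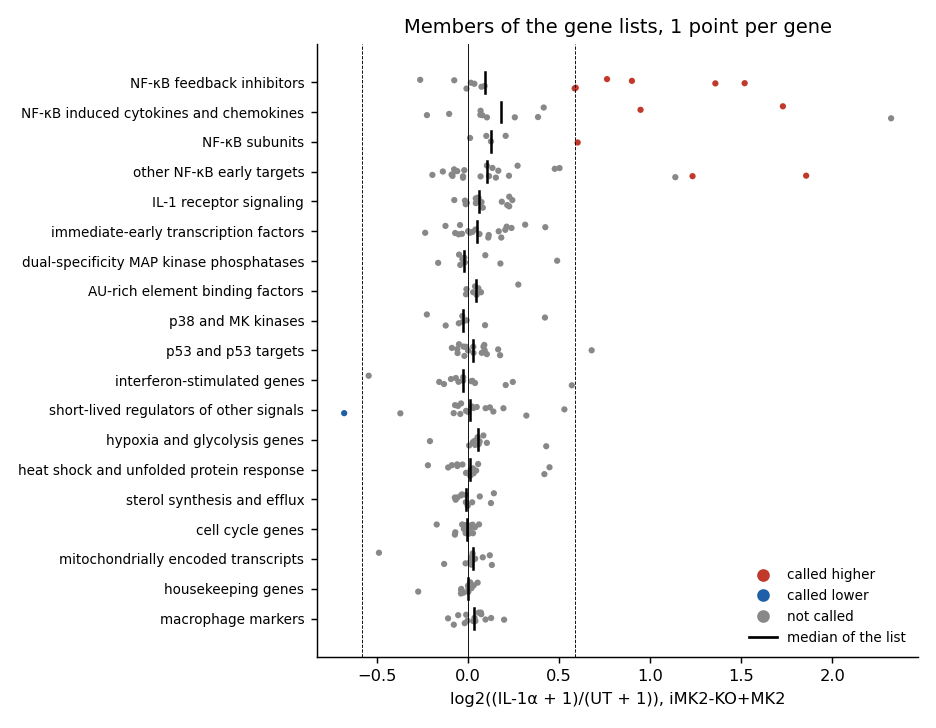
Log2 ratio of IL-1α to UT iMK2-KO+MK2 cells (x axis) for the members of 19 lists that passed the filter, 1 point per gene, with a black bar at the median and dashed lines at 1.5-fold. Called genes (red, higher) are found in the upper 4 rows, the NF-κB lists, and 1 gene, *Smad7*, is called lower (blue). The non-canonical components, with *Relb* called higher, and the markers of other cell types are not plotted.

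In iMK2-KO+GFP cells the same genes moved by far more. Of the 53 NF-κB list members, 41 were called higher there, with a median log2 ratio of 1.72 beside 0.10 in iMK2-KO+MK2 cells. All 11 members called higher in iMK2-KO+MK2 cells were also called in iMK2-KO+GFP cells, but *Il1b* and *Pde4b* passed the filter only through the libraries of the latter. The 2 pairs share no library, but the difference between their ratios was not tested, because each condition has 1 library, and a smaller number of responding cells and less RNA per cell cannot be told apart in bulk RNA. *Nfkbiz* was at 190 and 9664 in UT and IL-1α-treated iMK2-KO+GFP cells, a log2 ratio of 5.66 beside 1.52. *Tnf* was at 332 and 10784 (5.02 beside 0.95) and *Il1b* at 47 and 2007 (5.39 beside 1.73). Their UT levels in iMK2-KO+MK2 cells, 183, 315 and 15, were close to these or lower, and the levels after IL-1α were 526, 608 and 52.

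Expressed as gained normalized counts, the rise in iMK2-KO+MK2 cells was a small share of the rise in iMK2-KO+GFP cells, with 2 exceptions. The share was 1.89% for *Il1b*, 2.36% for *Pde4b*, 2.80% for *Tnf*, 3.62% for *Nfkbiz*, 4.12% for *Nfkbie*, 4.65% for *Nfkbia*, 4.88% for *Tnip3*, 7.41% for *Relb* and 11.5% for *Zc3h12a*. It reached 20.5% for *Nfkbid* and 34.4% for *Map3k8*. *Map3k8* was at 150 and 487 in iMK2-KO+GFP cells, and its log2 ratios of 1.69 and 1.23 differed by 0.46, the smallest difference among the 11 genes. The next smallest, 0.98, was that of *Nfkbid* (1.56 beside 0.58).

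For some strong responders of iMK2-KO+GFP cells, the difference in iMK2-KO+MK2 cells was within counting error. *Tnfaip3* was at 147 and 3524 in iMK2-KO+GFP cells, so that its level in UT iMK2-KO+MK2 cells, 1147, was already the higher of the UT values. *Acod1*, encoding the enzyme that makes itaconate, was at 311 and 6660 beside 119 and 137. *Saa3*, an acute-phase gene, was at 25 and 1180 beside 9 and 17, and *Prdm1*, encoding the repressor BLIMP-1, at 11 and 314 beside 14 and 25. *Gpr84*, a receptor for medium-chain fatty acids, was at 44 and 659 beside 29 and 35, *Traf1* at 15 and 341 beside 4 and 10, and *Cxcl2* at 0 and 981 beside 0 and 4. In iMK2-KO+MK2 cells the log2 ratios were 0.07 for *Tnfaip3*, 0.20 for *Acod1*, 0.26 for *Gpr84* (interval -0.48 to 1.03), 0.79 for *Prdm1* (-0.16 to 1.89), 0.85 for *Saa3* (-0.33 to 2.27) and 1.14 for *Traf1* (-0.47 to 3.45). The counts of the last 4 genes and of *Cxcl2* were so few that ratios above 1.5-fold also lie within their intervals.

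Over all 286 genes called higher in iMK2-KO+GFP cells, the median log2 ratio in iMK2-KO+MK2 cells was 0.08, and 80 (28%) were above and 19 (6.64%) below no change beyond counting error, beside 12.7% and 8.77% of all genes. Of these 286 genes, 19 were called higher in both lines. They are 6.64% of the 286, beside 0.661% of all genes called higher in iMK2-KO+MK2 cells. They are also 27.1% of the 70, beside 2.7% of all genes called higher in iMK2-KO+GFP cells. Beside the 11 NF-κB genes these were *Dock6*, *Fkbp14*, *Sdk2*, *Slc10a6*, *2900089D17Rik*, *Gm2004*, *Gm4890* and *Gm6565*. The 137 genes called lower in iMK2-KO+GFP cells had a median of 0.00 in iMK2-KO+MK2 cells, where 20 (14.6%) were below and 17 (12.4%) above no change beyond counting error. Of these 137 genes, 5 were also called lower in iMK2-KO+MK2 cells (3.65% of the 137 and 6.25% of the 80, beside 0.756% of all genes), and 9 were called higher, beside 0.661% of all genes.

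**Figure D4:**
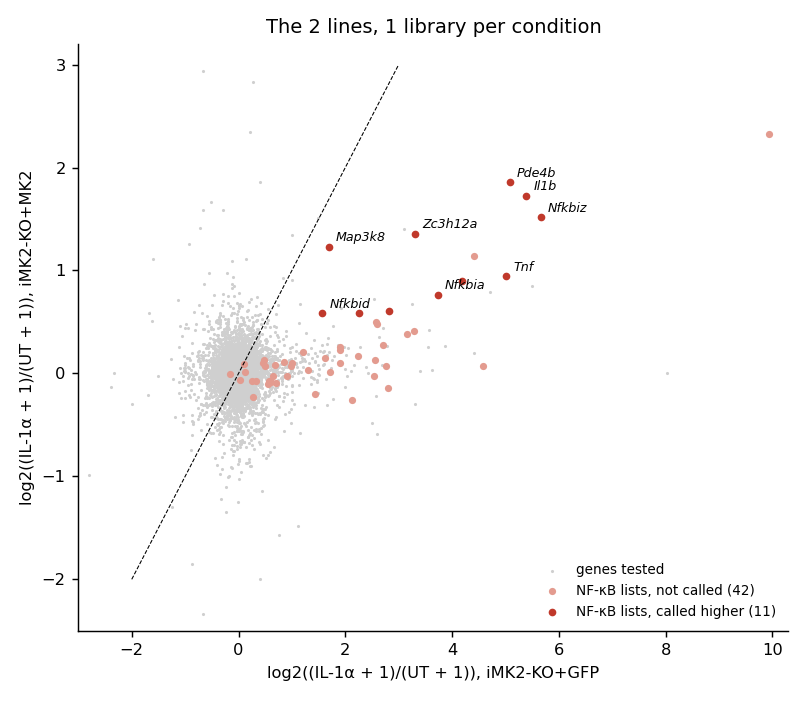
Log2 ratio of IL-1α to UT in iMK2-KO+GFP (x axis) and iMK2-KO+MK2 cells (y axis), 1 point per gene, with the dashed line marking equal ratios and 7 genes beyond the axes. The 11 called NF-κB genes (dark red) lie to the right of the line, and most of the other 42 NF-κB members (light red) lie along no change on the y axis.

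Among the 12 called genes with the highest ratios that had at least 50 normalized counts in either library and are not predicted genes, clones or pseudogenes, 6 were NF-κB genes (*Pde4b*, *Il1b*, *Nfkbiz*, *Zc3h12a*, *Map3k8* and *Tnf*). The other 6 were *Zfp965* (15 and 113), *Tnks1bp1* (25 and 77), *Dock6* (27 and 70), *Nova1* (66 and 144), *Notch1* (119 and 255) and *Flt3l* (27 and 54). Without the limit of 50, *Kif5a* (2 and 22) and *L1cam* (13 and 41) would take the places of *Flt3l* and *Tnf*. Of these only *Dock6*, which encodes an exchange factor for small GTPases, was also called higher in iMK2-KO+GFP cells, at 78 and 158. *Dock6*, like *Flt3l*, *Kif5a* and *L1cam*, had a mean under 50 in the 2 iMK2-KO+MK2 libraries. These genes passed the filter only through the iMK2-KO+GFP libraries. *Notch1*, the receptor gene, was at 47 and 43 in iMK2-KO+GFP cells, and *Flt3l*, the ligand of the receptor FLT3, was at 114 and 77.

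The 12 lowest such genes were *Rab43*, *Glcci1*, *Celsr3*, *Hacl1*, *Lyrm7*, *Bbs1*, *Rsph3a*, *Rhoj*, *Abhd18*, *Tpmt*, *Itgb7* and *Zfp113*, with log2 ratios between -1.85 and -0.88. No gene of the NF-κB lists was among them, and none was called lower in iMK2-KO+GFP cells. *Rab43*, a small GTPase gene, was at 244 and 67, but 74.8% of its 31-base words also occur in another gene, and the predicted gene *Gm45140*, which shares its sequence, was at 198 and 335. *Rsph3a*, a radial spoke gene, was at 403 and 201, and its copy *Rsph3b* brought the sum to 809 and 600. *Glcci1* was at 64 and 27, with 70.6% of its 31-base words in another gene. Summed with *Gm45062* it was at 163 and 134, which was not called. *Glcci1* and *Rhoj* (58 and 29) had means under 50 in the iMK2-KO+MK2 libraries and passed the filter only through the iMK2-KO+GFP libraries. *Celsr3*, encoding a cadherin, was at 165 and 74, and *Itgb7*, encoding an integrin, at 66 and 35, with 0.313% and 0% of their 31-base words in other genes.

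How reads that fit several genes were divided is not given in the sources used here, so shared sequence was counted from the GENCODE M21 transcripts as the share of each gene's 31-base words that occur in another gene. None of the 11 called NF-κB genes shared more than 2.32%. Of the other 59 genes called higher, 24 (40.7%) were predicted genes, clones or pseudogenes and 19 (32.2%) shared at least 50%, and of the 80 genes called lower these were 39 (48.8%) and 36 (45%). Over all genes tested the shares were 6.82% and 6.4%. Overlap in position with another tested gene was seen for 13 of the 59 higher (22%) and 17 of the 80 lower genes (21.2%), beside 20% of all genes tested. The largest ratios of the whole table were of this kind. *Gm10233* was at 0 in UT and 231 in IL-1α-treated iMK2-KO+MK2 cells and *Gm10171* at 293 and 0. Both share their words with *Timm23*, and *Gm10233* summed with the 5 genes that hold at least 20% of its words was at 6339 and 5903.

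Such sums were formed for the 55 called genes that share at least 50% of their words. With the genes that hold at least 20% of their words added, 43 of the 55 had a log2 ratio within 0.1 of no change, and 2 remained called, *Selenbp1* (83 and 138 with *Selenbp2*) and *Zfp456* (54 and 82 with *Gm17039*), both of them higher. In 40 of the 55, 12 higher and 28 lower, the sum was at least 10 times the gene's own value, so that a change of the gene alone could hardly move it. The sum therefore says little about those 40. A cluster on chromosome 2, at chr2:174971286-177412265 in the table's positions, held called genes of both directions. Of 26 tested genes there, 4 were called higher and 3 lower. *2210418O10Rik* was at 914 and 33, *Gm14296* at 209 and 1068, *Zfp965* at 15 and 113 and *Gm2004* at 0 and 131. The 70 genes of the cluster summed to 8617 in UT and 8937 in IL-1α-treated cells (log2 ratio 0.05, interval 0.01 to 0.10).

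**Figure D5:**
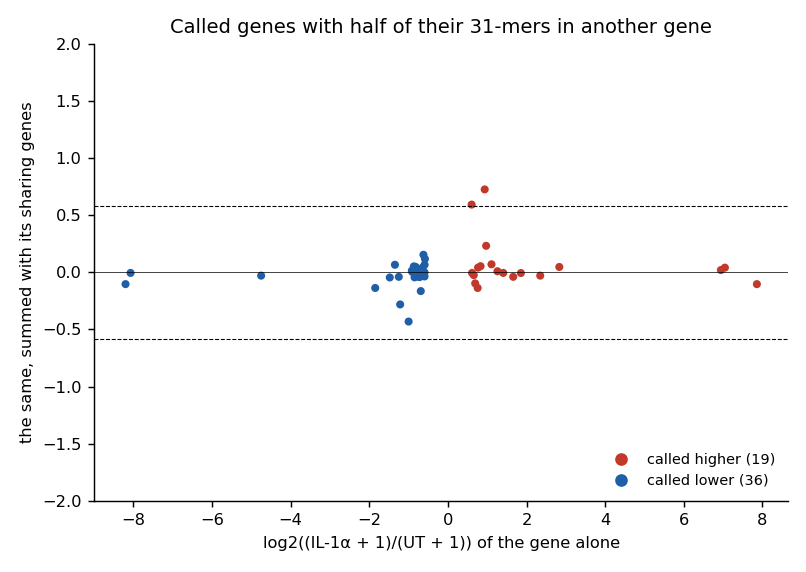
For the 55 called genes with at least 50% of their 31-base words in another gene, the log2 ratio of the gene alone (x axis) against that of the gene summed with the genes holding at least 20% of its words (y axis), with dashed lines at 1.5-fold. The ratios of the genes alone reach beyond 7 in both directions, and those of the sums lie between -0.43 and 0.73, with 2 above the upper line.

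When predicted genes, overlapping genes and genes that share at least 50% of their words were left out, 7764 genes remained. Of these, 39 were called higher (0.502%) and 32 lower (0.412%). The 39 included all 11 NF-κB genes, out of 51 NF-κB list members that remained, and the 32 included none. At a mean of 200 or more in the 2 iMK2-KO+MK2 libraries, 10 of these genes were higher, *Nfkbia*, *Nfkbid*, *Nfkbiz*, *Tnf*, *Arap3*, *Lysmd3*, *Pik3r3*, *Sdk2*, *Zdhhc18* and *Zfp395*, and 9 were lower, *Cyb5rl*, *Gask1b*, *Mettl21a*, *Nicn1*, *Rpl37rt*, *Spag4*, *Tbc1d19*, *Tmem143* and *Zfp111*. The NF-κB genes *Nfkbiz* and *Tnf* had the highest ratios of these 10. These 19 genes were chosen after their values were seen. *Sdk2* (160 and 265) was also called higher in iMK2-KO+GFP cells, at 8 and 51, and *Mettl21a* (341 and 225) was also called lower there, at 345 and 188. *Lysmd3* (384 and 643), *Arap3* (342 and 567) and *Gask1b* (724 and 422) were called in iMK2-KO+MK2 cells alone. In iMK2-KO+GFP cells they went the same way by under 1.5-fold, at 491 and 621, 849 and 1003, and 385 and 317. The difference between the lines was not tested.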

How the data were processed

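RNA sequencing was carried out by the authors on 1 library per condition, and they deposited 1 table of 55356 genes with 4 columns of whole numbers, a score per gene and library. The colour scale of a heatmap by the authors names DESeq2 normalized counts, and the deposited values were taken to be these, so no count model was applied to them. The paper describes single reads of ribosome-depleted total RNA and the labels paired 38-base reads of polyadenylated RNA. The submitters' processing notes, by the authors, name DESeq2 and GRCm38 without versions. Of 52080 gene IDs shared with GENCODE M21 on GRCm38, 2.88% have the same start, so the build of the table's positions is not settled. Deposited positions served to find overlaps and clusters only, and the deposited gene length was not used. The unit of the values is therefore a score and the depth behind it is not known, which is why intervals take the values as reads.

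Groups came from the sample titles. Log2 ratios used a pseudocount of 1, and genes with a mean of at least 50 over the 4 libraries were tested. A call needed 1.5-fold and a 95% Clopper-Pearson interval excluding no change. Values of 0 entered the calls as they were, and a floor of 3 counts was used only to check the list medians. The script was tested on simulated data. The genes and the 21 lists were chosen with earlier results of these data known. Named genes were list members inside the filter, the 12 highest and 12 lowest called genes with at least 50 in either iMK2-KO+MK2 library that were not predicted genes, clones or pseudogenes, the 12 highest in iMK2-KO+GFP cells by the same limits, and promoters of at most 5 called NF-κB genes, for which genes with several starts were passed over. Shared words of 31 bases and the sums over sharing genes were added after the data were seen. Alternatives were other scalings, pseudocounts, filters and fold limits. Python 3.11.15, numpy 2.4.6, pandas 2.3.3, scipy 1.17.1 and matplotlib 3.10.9 were used.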

Additional observations from a re-analysis of the deposited data

Results flagged for a closer look

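Of the genes with established names, 6 were called in opposite directions in the lines, and in each case the difference between the lines was not tested, since every condition has 1 library. *Kif5a*, a neuronal kinesin gene, was at 2 and 22 in UT and IL-1α-treated iMK2-KO+MK2 cells (log2 ratio 2.94, interval 1.44 to 6.59) and at 112 and 70 in iMK2-KO+GFP cells (-0.67). *L1cam*, an adhesion molecule gene, was at 13 and 41 (1.58) beside 134 and 84 (-0.67), and the transcription factor gene *Zfp395* at 225 and 411 (0.87) beside 85 and 54 (-0.64). *Tlr8*, a receptor for RNA, was at 66 and 109 (0.72) beside 109 and 49 (-1.14). *Klhdc1* was at 71 and 107 (0.58) beside 141 and 87 (-0.69). *Mamdc4* was the one gene lower in iMK2-KO+MK2 cells, at 77 and 45 (-0.76), and higher in iMK2-KO+GFP cells, at 41 and 62 (0.58). With predicted genes and pseudogenes included, 9 of the 137 genes called lower in iMK2-KO+GFP cells were called higher in iMK2-KO+MK2 cells. Of the 286 called higher there, 4 went the other way. Over all genes tested, 0.661% were called higher and 0.756% lower in iMK2-KO+MK2 cells. At means under 50 in these 2 libraries, as for *Kif5a* and *L1cam*, 8.47% were called higher.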

How the results depend on the processing

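Counts of called genes depended on the filter and the limit, with 70 higher and 80 lower as reported. With a mean of at least 10 over the 4 libraries they were 148 and 179, with a mean of at least 200 they were 24 and 24, and with no filter 223 and 268. At 2-fold they were 22 and 16, and 5 NF-κB genes were called in place of 11. Without predicted genes, clones and pseudogenes they were 46 and 41, and with distinct genes only 39 and 32. When each of the 70 and 80 called genes was summed with its sharing genes, 51 and 40 kept the call. Genes not called were not summed, so these numbers could only fall. At 2-fold in both lines, 9 genes in place of 19 were called higher in both and 2 in place of 5 lower. The median log2 ratio of the NF-κB lists stayed above 0 and above that of all genes under each of the 3 scalings, the 2 pseudocounts and the 3 filters. Of 30 called genes that were list members or named, none changed direction under the scalings and pseudocounts, and 3 lost the call at some setting, *Nfkbid* and *Tnip3* with scaling to the total or to the median ratio and, with *Relb*, at a pseudocount of 5. The medians of 7 lists near 0 changed sign with a scaling, and no scaling moved the median of all genes by over 0.1. No paired analysis was possible because each condition has 1 library. Depth limits members such as *Cxcl2*, *Traf1*, *Bcl3*, *Il1b*, *Pde4b*, *Il1a* and *Nfkbie*, which had under 100 normalized counts in each iMK2-KO+MK2 library.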
